A study of Mus musculus with 4 samples.

Results

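Igf2, H19, Dlk1, Meg3, Peg3, Zim1, Cdkn1c, Grb10, Plagl1 and Mest are 10 imprinted genes linked to growth, taken by their symbols from the 31053 genes of the count tables; all 10 were found. Single cells came from 2 oviduct and 2 uterus libraries of untreated, wild-type CD1 pups on postnatal day 3. CD1 is an outbred strain. Each library pooled tissue of several neonates, pools of 3 and 4, and both organs came from the same animals; the labels do not say which replicate number belongs to which pool. The study asked how the 2 organs, which both form from the Müllerian duct, come to differ. The genes were listed by name with earlier results of these data in view, and Zim1 was chosen by its level, with which it leads a group of oviduct stromal cells, so the values of Zim1 are given as a description, without a test, and tests cover the other 9 genes.

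Imprinted genes are expressed mainly from the copy inherited from 1 parent. Many that are expressed from the paternal copy promote growth before and shortly after birth, and several expressed from the maternal copy restrain it; as a group they are high in fetal and newborn tissue and fall as growth slows. UMI counts (unique molecular identifiers, 1 for each captured RNA molecule) do not separate the parental copies, so imprinting itself was not measured. Igf2 encodes a paternally expressed growth factor and H19 is the maternally expressed non-coding RNA that shares enhancers with it. Dlk1 encodes a paternally expressed transmembrane protein related to Notch ligands, and Meg3 is the maternally expressed non-coding RNA of the same cluster. Peg3, paternally expressed, and Zim1, maternally expressed, are neighbouring zinc finger genes. Cdkn1c encodes an inhibitor of cyclin-dependent kinases and Grb10 an adaptor that dampens insulin and insulin-like growth factor receptors. Plagl1 is a zinc finger transcription factor known to act on other imprinted genes, and Mest is a paternally expressed gene of mesoderm that encodes a hydrolase-like protein.

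In the GENCODE M21 annotation of mouse build GRCm38, Igf2 (ENSMUSG00000048583) lies at chr7:142650766-142666816 and H19 (ENSMUSG00000000031) at chr7:142575529-142578143, both on the minus strand and 72.6 kb apart. Dlk1 (ENSMUSG00000040856) lies at chr12:109452823-109463336 and Meg3 (ENSMUSG00000021268) at chr12:109541001-109571726, both on the plus strand and 77.7 kb apart. Peg3 (ENSMUSG00000002265) lies at chr7:6703892-6730431 and Zim1 (ENSMUSG00000002266) at chr7:6671269-6696450, both on the minus strand with a gap of 7.44 kb. Cdkn1c (ENSMUSG00000037664) is on chromosome 7, Grb10 (ENSMUSG00000020176) on chromosome 11, Plagl1 (ENSMUSG00000019817) on chromosome 10 and Mest (ENSMUSG00000051855) on chromosome 6. A same-strand gene model, Gm49394, covers 62.8% of the exonic bases of Igf2 and 99.4% of the last 500, where reads of a 3′ library fall. Gm49394 has 4 UMIs over all classes against 10282 of Igf2, which says nothing of reads that fit both models. How such reads were counted is not given in the sources used here, so every level of Igf2 below may be an undercount.

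The 2 neighbouring pairs whose levels are followed most closely are shown by their promoters, each from 250 bases before to 50 bases from the annotated start on, as RefSeq gives them for GRCm38.p6. RefSeq start windows were at hand for 8 of the 10 genes, 15 windows in all, and not for H19 and Cdkn1c. Capitals mark 2 motifs searched on both strands, which were chosen after the sequences had been seen: TGACGTCA, the full cyclic AMP response element, and GGGGCCCC, a core of the Plagl1 element; both read the same on either strand. The windows are chr7:6730370-6730669 on the minus strand for Peg3, chr7:6696383-6696682 on the minus strand for Zim1, chr12:109452573-109452872 on the plus strand for Dlk1 and chr12:109540746-109541045 on the plus strand for Meg3.
Peg3: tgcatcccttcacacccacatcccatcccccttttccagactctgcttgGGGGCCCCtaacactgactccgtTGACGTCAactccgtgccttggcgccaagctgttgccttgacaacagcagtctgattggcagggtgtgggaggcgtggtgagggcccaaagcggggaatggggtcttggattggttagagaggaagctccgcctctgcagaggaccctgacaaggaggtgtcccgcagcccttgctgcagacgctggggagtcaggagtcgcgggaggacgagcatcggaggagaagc
Zim1: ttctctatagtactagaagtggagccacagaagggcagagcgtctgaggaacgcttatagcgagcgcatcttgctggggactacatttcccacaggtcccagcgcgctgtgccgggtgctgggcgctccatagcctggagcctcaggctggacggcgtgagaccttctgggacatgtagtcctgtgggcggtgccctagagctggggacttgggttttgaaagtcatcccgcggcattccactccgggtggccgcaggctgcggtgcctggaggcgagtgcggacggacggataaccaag
Dlk1: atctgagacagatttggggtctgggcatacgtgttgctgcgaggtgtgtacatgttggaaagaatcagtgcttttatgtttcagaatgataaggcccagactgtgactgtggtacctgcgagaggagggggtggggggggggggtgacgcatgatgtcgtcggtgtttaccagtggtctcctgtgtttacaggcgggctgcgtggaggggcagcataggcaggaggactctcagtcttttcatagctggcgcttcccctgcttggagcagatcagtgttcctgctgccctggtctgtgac
Meg3: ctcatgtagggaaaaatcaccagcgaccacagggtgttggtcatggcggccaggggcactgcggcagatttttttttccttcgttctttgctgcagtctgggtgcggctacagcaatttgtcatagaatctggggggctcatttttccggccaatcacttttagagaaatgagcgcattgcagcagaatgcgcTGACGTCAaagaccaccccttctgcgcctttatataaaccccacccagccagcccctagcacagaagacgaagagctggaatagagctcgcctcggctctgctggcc
The response element begins at position -178 from the start of Peg3 and at -57 from that of Meg3, and it occurs in 1.79% of the 32851 promoter windows of the same length. The Plagl1 core begins at -201 in Peg3 and occurs in 1.08% of the windows. Of the 8 genes with windows, 2 held the response element and 1 held the Plagl1 core. The other window of Meg3, at chr12:109545148-109545447, held neither. The motifs are matches of letters only, and binding was not measured.

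Libraries held 5716 to 7808 called cells with medians of 9608 to 11890.5 UMIs per cell. Cells were kept with at least 500 genes and at most 15% mitochondrial UMIs, which removed 11.4% and 13.8% of the oviduct cells but 29.0% and 28.7% of the uterus cells (the part of this in the organ differences was not tested). From 8 to 15 barcodes were shared between any 2 libraries. Cells were assigned to 7 classes by counts of fixed marker genes, and the classes are named for the markers that gate them. Stroma held 1727 to 3524 cells per library, smooth muscle 724 to 1097, pericytes 133 to 166, blood endothelium 135 to 167, mesothelium 63 to 460, epithelium 41 to 200 and myeloid cells 26 to 68. Between 1139 and 1411 cells per library fell in no class. UMIs were summed per class and library, and levels are UMIs per 1000000 UMIs of that sum (CPM).

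Levels of most of these genes were highest in stroma, smooth muscle, pericytes or mesothelium. Mest and, in the oviduct, Grb10 were exceptions, and each gene had its own order of classes. Igf2 in stroma was 65.5 and 67.0 CPM in oviduct libraries and 33.0 and 33.8 in uterus libraries, and in pericytes 65.8 and 56.7 against 37.7 and 44.7. These 2 classes overlapped in the oviduct, and pericytes lay above stroma in the uterus. Smooth muscle followed in the oviduct, at 46.4 and 51.2 CPM, above mesothelium at 29.5 and 30.5, whereas in the uterus mesothelium at 30.6 and 35.3 CPM overlapped stroma and lay above smooth muscle at 26.6 and 27.4. Blood endothelium held 4.90 to 12.7 CPM of Igf2 and epithelium 1.40 to 2.42. H19 in stroma was 1421 and 1381 CPM in oviduct libraries and 881 and 778 in uterus libraries. In the oviduct mesothelium, at 1081 and 1230.1 CPM, and pericytes, at 1153 and 1161, lay below stroma. In the uterus the same classes lay above stroma, at 1014 and 1116 CPM and at 917 and 1062. Its lowest class was epithelium, at 38.3 to 66.7 CPM. Mest had a different order: blood endothelium held 1097 and 1098 CPM in oviduct libraries and 1350.0 and 1344 in uterus libraries, above pericytes at 332 to 740 CPM and stroma at 201 to 248. The 4 endothelial libraries of Mest lay above every library of every other class. Grb10 was also high in endothelium. In the oviduct it was 317 to 333 CPM there, above mesothelium at 263 to 295. In the uterus these 2 classes overlapped, at 333 to 432 CPM and 393 to 398. Within each organ Cdkn1c was highest in stroma, at 794 to 1130.2 CPM, and Plagl1 was highest in stroma within the oviduct, at 248 and 254 CPM. Zim1 was 32.2 and 34.0 CPM in oviduct stroma, 9.36 and 8.59 in uterine stroma, and 20.2 and 23.1 against 25.9 and 36.8 in pericytes, so that the organ with the higher level differed between these classes.

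**Figure D1:**
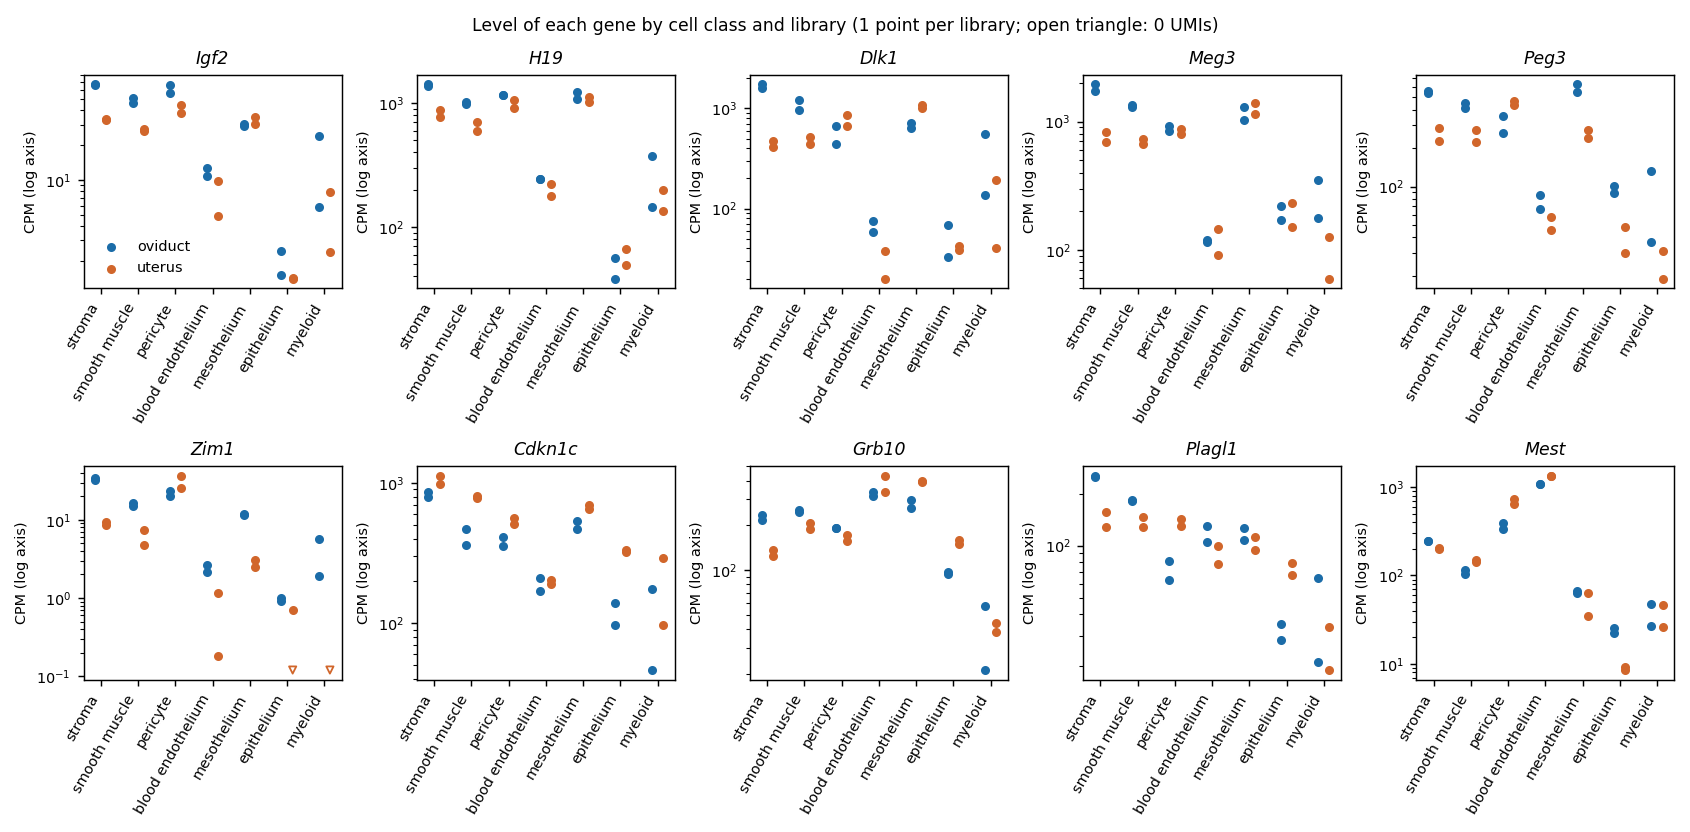
Level of each of the 10 genes in 7 cell classes, as CPM on a log axis with 1 point per library (2 oviduct, blue; 2 uterus, orange). Open triangles, drawn near the foot of the Zim1 panel, mark sums with 0 UMIs. Mest peaks in blood endothelium at 1097 to 1350.0 CPM, and Igf2 is lowest in epithelium at 1.40 to 2.42 CPM.

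Free RNA in the droplets sets how far the low values can be read. The profile of barcodes with 2 to 100 UMIs and the marker genes of other classes give an upper bound on the ambient part of each sum. The largest bounds in stroma, smooth muscle, pericytes and mesothelium were 10% or less of the level of any of the 10 genes. In epithelium they reached 89% for H19, 68% for Zim1, 57% for Dlk1 and 53% for Igf2, and in blood endothelium 50% for Dlk1 and 48% for Zim1. After thinning to 5000 UMIs per cell, 26.6% and 28.0% of oviduct stromal cells and 15.6% and 16.04% of uterine stromal cells held a UMI of Igf2. In epithelium 1 of 111, 2 of 168, 1 of 29 and 0 of 30 thinned cells did. Thinning raised mean levels in oviduct epithelium from 47.3 to 79.6 CPM for H19 and from 50.5 to 114 for Dlk1. Igf2 in uterine epithelium was 1.41 CPM before and 3.45 after thinning. The thinned value rests on 1 cell with a UMI, so no change is read from it. In uterine myeloid cells thinning left Igf2 at 0.

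In stroma, 8 of the 9 tested genes differed between the organs: 7 were higher in the oviduct and Cdkn1c was higher in the uterus. Among all genes tested in stroma 41.7% were called, 22.4% higher in the oviduct and 19.3% lower. The median log2 difference of the 9 genes was 0.77, against 0.00 over all genes. Dlk1 was 1742 and 1583 CPM in oviduct libraries and 412 and 475 in uterus libraries, a log2 difference of 1.84 ± 0.12 (SE; edgeR adjusted p = 3.8e-08). Meg3 was 1748 and 1956 CPM against 837 and 699, a log2 difference of 1.21 ± 0.11 (edgeR adjusted p = 1.1e-06). For both genes of this cluster the oviduct and uterus libraries did not overlap. Peg3 was 541 and 562 CPM against 288 and 225, a log2 difference of 1.05 ± 0.11 (edgeR adjusted p = 5.5e-06). On the log2 scale Igf2 and H19 were higher by 0.93 ± 0.09 and 0.70 ± 0.10, and Grb10 and Plagl1 by 0.73 ± 0.09 and 0.77 ± 0.10.

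Cdkn1c went the other way in stroma, with 857 and 794 CPM in oviduct libraries and 1130.2 and 983 in uterus libraries, a log2 difference of -0.41 ± 0.10 (edgeR adjusted p = 0.0056). Without oviduct replicate 2 or without uterus replicate 1 its adjusted p was 0.064 and 0.057. Mest was 246 and 248 CPM against 202 and 201, a log2 difference of 0.23 ± 0.09 that was not called (edgeR adjusted p = 0.054) and that was called with DESeq2, with the strict cell filter, with 1 more marker and after ambient subtraction (adjusted p = 0.025 to 0.044). The summed level of the 8 stromal markers was also 8759 to 9055 CPM in oviduct stroma and 3274 to 3409 in uterine stroma, so the cells under this gate differ between the organs in more than these genes. In stroma the smooth muscle markers summed to 1032 to 1075 CPM over all 4 libraries. Mesothelial markers summed to 83.4 to 83.7 CPM in the oviduct and 21.3 to 28.2 in the uterus. The ovary markers (Amh, Foxl2, Inha, Dazl, Ddx4 and Sycp3) summed to 115 to 124 and 57.5 to 65.1 CPM. Which of these genes made up the sums was not examined, so no ovary cells are read from them here or below. Blood endothelial markers summed to 40.5 to 50.7 and 23.7 to 33.0 CPM, and epithelial markers to 52.2 to 64.7 and 69.8 to 85.7. The part of these differences in the gene results was not tested.

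Other genes of these pathways were compared in stroma, where 41.7% of all genes were called. Of the 47 other imprinted genes in the files, 42 were tested and 25 were called, 18 higher in the oviduct and 7 lower, with a median log2 difference of 0.22. Ndn, a paternally expressed gene of the MAGE family, was 206 ± 15.03 CPM in oviduct libraries and 79.7 ± 1.29 in uterus libraries (SD, n = 2), and Zdbf2 and Gnas were higher by 0.97 and 0.59 on the log2 scale. Nnat, Kcnq1ot1 and Blcap were the called genes furthest the other way, at -0.36, -0.28 and -0.25. Of 12 tested receptors and binding proteins of Igf2, 8 were called, 7 higher and 1 lower in the oviduct. Igfbp6 and Igfbp7, which are secreted binding proteins, were higher by 1.40 and 1.32 and Igfbp5 by 0.55, and Igfbp3 was 21.9 ± 0.73 CPM against 45.7 ± 0.24. Of 12 tested partners of the other genes, 4 were higher and 4 lower. Cdkn1a, a relative of Cdkn1c, was 89.7 ± 0.18 CPM in oviduct libraries and 10.5 ± 3.09 in uterus libraries, and Ccnd3 and Cdkn1b were higher by 0.65 and 0.54. Ccnd1, a cyclin that drives entry into the cell cycle, was 33.8 ± 1.18 CPM against 125 ± 3.98, and Hmga2 and Cdk6 were lower in the oviduct, at -1.46 and -0.76.

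In smooth muscle all 9 tested genes were called, 7 higher and 2 lower in the oviduct, where 31.2% of all tested genes were called (16.8% higher, 14.4% lower). Dlk1 was 1207 and 968 CPM in oviduct libraries and 440.1 and 523 in uterus libraries, a log2 difference of 1.16 ± 0.12 (edgeR adjusted p = 4.1e-06). Cdkn1c was 466 and 363 CPM against 814 and 781, a log2 difference of -0.96 ± 0.11 (edgeR adjusted p = 1.1e-05). Mest was 115 and 104 CPM against 148 and 141, a log2 difference of -0.42 ± 0.09. Grb10, higher in the oviduct by 0.31, was not called without oviduct replicate 2 or uterus replicate 2, and Mest was not called when 1 more class marker was required (adjusted p = 0.060). The organ difference of Mest was lower in smooth muscle than in stroma, at -0.67 ± 0.15 (edgeR adjusted p = 0.0080), the single one of 9 such differences that was called, beside 4.89% of all genes (1.26% higher, 3.63% lower). That call was lost with the stricter gate (adjusted p = 0.081) and without oviduct replicate 2 (adjusted p = 0.069). In smooth muscle its own markers summed to 8456 to 8587 CPM in the oviduct against 6307 to 6403 in the uterus, stromal markers to 5627 to 5910.4 against 4519 to 4793, ovary markers to 130.1 to 148 against 37.1 to 39.6 and epithelial markers to 60.6 to 76.6 against 125 to 128. These sums did not overlap between the organs, and their part in the result was not tested.

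In pericytes, the cells that wrap small vessels, 4 of the 9 genes were called and these 4 were lower in the oviduct, while 5.33% of all tested genes were called, 3.76% higher and 1.58% lower. Mest was 397 and 332 CPM in oviduct libraries and 740 and 644 in uterus libraries, a log2 difference of -0.97 ± 0.12 (edgeR adjusted p = 0.00055). Plagl1 was 81.1 and 63.2 CPM against 143 and 130.2, a log2 difference of -0.95 ± 0.14 (edgeR adjusted p = 0.0013). Peg3 at 354 and 263 CPM against 430.5 and 467 and Cdkn1c at 414 and 355 against 565 and 508 were lower, with log2 differences of -0.58 and -0.53. The calls of Peg3 and Cdkn1c were lost without oviduct replicate 2. That of Peg3 was also lost with 1 more marker (-0.48, edgeR adjusted p = 0.12). Dlk1 was 670.0 and 439 CPM in oviduct libraries and 665 and 852 in uterus libraries, and its log2 difference of -0.49 ± 0.18 was not called (edgeR adjusted p = 0.16). It was called without oviduct replicate 1 (-0.86, adjusted p = 0.014), without uterus replicate 1 (-0.67), without the deepest 5% of cells (-0.63) and with no low-count filter (-0.49). Igf2 kept the order of stroma, with 65.8 and 56.7 CPM in oviduct libraries against 37.7 and 44.7; the log2 difference of 0.53 ± 0.15 was not called (edgeR adjusted p = 0.074), but it was without uterus replicate 2 (0.68), with no low-count filter (0.54) and with a replicate block (0.53).

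The difference between the organs was itself compared between pericytes and stroma, and 6 of 9 genes were called beside 4.46% of all genes (1.64% higher, 2.82% lower). Pericytes minus stroma, it was -2.39 ± 0.34 for Dlk1 (edgeR adjusted p = 3.6e-05), -1.73 ± 0.20 for Plagl1, -1.66 ± 0.23 for Peg3, -1.22 ± 0.16 for Mest, -1.20 ± 0.25 for Meg3 and -0.56 ± 0.15 for Grb10. Meg3 was not called without uterus replicate 2, and Grb10 was not called when any library but oviduct replicate 1 was left out, with 1 more marker or after ambient subtraction. Pericyte marker genes summed to 2834 to 3499 CPM in the oviduct and 2579 to 2732 in the uterus. Smooth muscle markers in the same cells summed to 3656 to 3958 and 2133 to 2196 CPM, and stromal markers to 3446 to 3679 and 2237 to 2797. Among other lists, ovary markers at 28.5 to 30.6 against 8.17 to 9.10 CPM and blood endothelial markers at 119 to 140 against 84.9 to 89.4 were higher in the oviduct. Myeloid markers at 9.53 to 9.75 against 9.89 to 11.8 were lower. Their part in the result was not tested.

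In mesothelium, the layer that covers the organs, 4 of 9 genes were called beside 8.83% of all genes (5.23% higher, 3.6% lower). Peg3 was 549 and 630.2 CPM in oviduct libraries and 276 and 238 in uterus libraries, a log2 difference of 1.20 ± 0.13 (edgeR adjusted p = 2.5e-05). Dlk1, in contrast, was 720.5 and 637 CPM against 1072 and 1002, a log2 difference of -0.61 ± 0.12 (edgeR adjusted p = 0.0041). Cdkn1c and Grb10 were also lower in the oviduct, at -0.42 and -0.50. Dlk1, Cdkn1c and Grb10 lost their calls without uterus replicate 1, where the uterus is left with 63 cells, Cdkn1c and Grb10 also without uterus replicate 2, and Cdkn1c also without oviduct replicate 2 (adjusted p = 0.12). Compared with the organ difference in stroma, that of mesothelium was lower, by a log2 value of -2.43 ± 0.33 for Dlk1, -1.31 ± 0.25 for Meg3, -1.19 ± 0.14 for Grb10 and -1.03 ± 0.23 for Igf2, 4 of 9 genes beside 16.6% of all genes (7.25% higher, 9.39% lower); Igf2 was not called without uterus replicate 1. H19 and Plagl1 were not called, but both were with RLE scaling, with no low-count filter, without the deepest cells and without oviduct replicate 2. The stromal markers summed to 6502 to 7140.0 CPM in oviduct mesothelium and 8761 to 10763 in uterine mesothelium. Smooth muscle markers summed to 690 to 741 against 1478 to 1567 CPM and epithelial markers to 957 to 978 against 679 to 727. Blood endothelial markers summed to 168 to 170 against 235 to 254 CPM and pericyte markers to 124 to 165 against 73.6 to 93.0. The part of these sums was not tested.

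In epithelium, 5 of 8 tested genes were called beside 22% of all genes (13.7% higher, 8.33% lower), and Igf2 was too low to be tested. Mest was 25.4 and 22.6 CPM in oviduct libraries and 8.51 and 9.32 in uterus libraries, and Peg3 was 89.6 and 100.4 against 48.2 and 30.3; the log2 differences were 1.54 ± 0.26 and 1.44 ± 0.21. In cells thinned to 5000 UMIs the mean level of Mest was 39.3 CPM in the oviduct against 23.7 for the uterus. That of Peg3 in the uterus was 61.0 CPM. Thinning leaves out cells under 5000 UMIs. The thinned uterine levels rest on few UMIs, so no change of the organ difference is read from them. The unthinned uterine levels of Mest, 8.51 and 9.32 CPM of sums of 1409971 and 2145133 UMIs, rest on few UMIs as well. The size of its organ difference in epithelium is therefore uncertain. Cdkn1c was 139 and 97.6 CPM against 323 and 333, a log2 difference of -1.34 ± 0.19 (edgeR adjusted p = 6.2e-05). Plagl1 and Grb10 were lower in the oviduct, at -1.08 and -0.56, and the call of Grb10 was lost when any 1 of the 4 libraries was left out. H19 and Dlk1 were not called in the main fit. H19 was called lower in the oviduct at -1.69 (edgeR adjusted p = 0.0012) after ambient counts were subtracted. That subtraction removed the upper bound and not an estimate, 3.99% and 1.82% of the oviduct sums and 1.24% and 2.10% of the uterus sums. Its part in the H19 value was not tested. Dlk1 was higher by 0.87 without oviduct replicate 2. Uterine epithelium rests on 41 and 46 cells. Stromal markers in epithelium overlapped between the organs, at 159 to 344 and 213 to 358 CPM. Erythroid markers at 534 to 1101 against 133 to 167 CPM, endothelial markers at 47.8 to 49.4 against 27.7 to 29.8 and lymphoid markers at 20.8 to 21.8 against 6.53 to 7.09 were higher in the oviduct, and myeloid markers at 3.92 to 6.54 against 14.2 to 16.3 were lower; their part was not tested. Against stroma, the organ difference was lower for H19, Dlk1, Meg3, Cdkn1c, Grb10 and Plagl1 and higher for Mest. These are 7 of 8 genes beside 20.6% of all genes (12.8% higher, 7.86% lower). Igf2, which passed the filter on low counts only through other classes, is left out of this count. Much of the epithelial levels of H19 and Dlk1 may be ambient, by the bounds given above. The calls of H19, Dlk1 and Meg3 did not hold without uterus replicate 1, nor those of H19, Dlk1 and Cdkn1c without uterus replicate 2. DESeq2 did not call Dlk1 or Cdkn1c there (adjusted p = 0.081 and 0.12), and H19 was not called with the strict cell filter (-0.56, adjusted p = 0.17).

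In blood endothelium 2 of 9 genes were called beside 3.69% of all genes (2.81% higher, 0.883% lower). Dlk1 was 75.8 and 58.3 CPM in oviduct libraries and 38.1 and 19.96 in uterus libraries, a log2 difference of 1.28 ± 0.20 (edgeR adjusted p = 0.00021), with up to 50% of that level allowed as ambient. Stromal markers in these cells summed to 380 to 410 CPM in the oviduct and 199 to 283 in the uterus, and smooth muscle markers to 269 to 326 and 134 to 216, so both were higher in the oviduct like Dlk1 and Peg3, and their part was not tested. Peg3 was 85.2 and 67.4 CPM against 57.9 and 45.4, a log2 difference of 0.61 ± 0.17 (edgeR adjusted p = 0.034). DESeq2 called neither gene (adjusted p = 0.22 and 0.18), and Peg3 was not called without oviduct replicate 1 (adjusted p = 0.45) or without uterus replicate 2 (adjusted p = 0.24). Against stroma, the organ difference was lower, at -1.18 ± 0.27 for Meg3, -0.93 ± 0.14 for Grb10 and -0.50 ± 0.15 for Mest, 3 of 9 genes beside 9.03% of all genes (4.05% higher, 4.98% lower); without uterus replicate 1 Grb10 alone was called, and Mest was not called when any 1 of the 4 libraries was left out, with DESeq2, with 1 more marker or after ambient subtraction. In myeloid cells edgeR called 0 of 8 genes beside 0.216% of all genes (0.133% higher, 0.0831% lower), with 2 at an unadjusted p under 0.05 and 0 called by DESeq2. The myeloid cells of oviduct replicate 1 stood above the other library of their organ, at 559 against 137 CPM for Dlk1 and 24.1 against 5.78 for Igf2, and the stromal markers there summed to 2287 against 908 CPM.

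**Figure D2:**
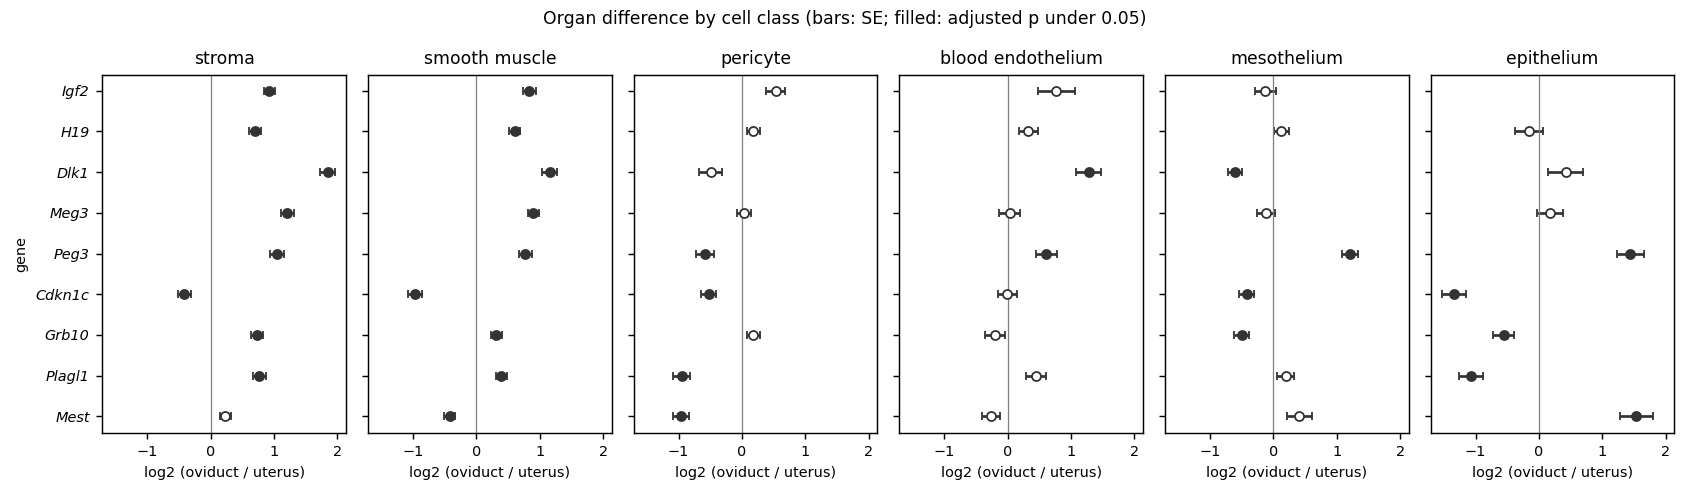
Log2 difference between oviduct and uterus for 9 genes in 6 cell classes, with SE as bars and filled points at an adjusted p under 0.05 (2 libraries per organ). Dlk1 lies at 1.84 in stroma and at -0.61 in mesothelium, and Cdkn1c lies between -1.34 and -0.01 in the 6 classes.

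Averaged over the organs, the classes differed from stroma as follows. In epithelium and in myeloid cells 8 genes were called lower than in stroma, and Igf2, which passed the filter on low counts only through other classes, is given by its levels only. The calls stand beside 65.5% of all genes called in epithelium (33.6% higher, 31.9% lower) and 50% in myeloid cells (22.5% higher, 27.5% lower). Grb10 in uterine epithelium went against that average, at 149 and 160.3 CPM against 124 and 136 in uterine stroma. For H19 and Dlk1 in epithelium, whose levels allow up to 89% and 57% as ambient, no fold against stroma is given. In blood endothelium all 9 were called beside 68.5% of all genes (33.7% higher, 34.8% lower): Mest was higher by 2.36 ± 0.08 (edgeR adjusted p = 3.9e-20) and Grb10 by 0.96 ± 0.07, and the other 7 were lower. In pericytes 5 were called beside 40% of all genes (18.6% higher, 21.4% lower), with Mest higher by 1.07 ± 0.08 and Dlk1, Meg3, Cdkn1c and Plagl1 lower. In the uterus alone, mean levels in pericytes and stroma were 758 and 444 CPM for Dlk1, 838 and 768 for Meg3 and 137 and 142 for Plagl1. The average does not hold in both organs for Dlk1 and Meg3, and DESeq2 did not call Dlk1 (adjusted p = 0.17). For Plagl1 the uterine libraries overlapped, at 130.2 to 143 CPM in pericytes and 127.8 to 155.9 in stroma. In the oviduct its mean levels in these classes were 72.1 and 251 CPM. In mesothelium 5 were called beside 54.4% (28.3% higher, 26.1% lower), with Grb10 higher by 0.82 ± 0.07 and Mest lower, at -2.14 ± 0.09. In smooth muscle 6 were called beside 22.6% (12% higher, 10.6% lower), with Grb10 higher by 0.37 ± 0.07 and Mest lower, at -0.84 ± 0.08. DESeq2 called 4 of 9 in that comparison. Where the share of all genes called is this high, the counts describe the genes and set them apart from no other list.

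Within the oviduct stroma, cells with UMIs of both Angptl7 and Hsd11b2, 152 and 135 cells in the 2 libraries, belong to the gate set for the group that Zim1 leads. Zim1 was 142 and 117 CPM in these cells and 18.4 and 18.8 CPM in the 2914 and 2238 stromal cells with neither gene. Peg3, its neighbour, was 1368 and 1371 CPM against 434 and 437. Dlk1 was 2722 and 2380.1 CPM against 1595 and 1454, Cdkn1c was 1214 and 1215 against 786 and 711, and Grb10 was 392 and 402 against 186 and 203. Cells with 1 of the 2 gate genes, 458 and 301 in number, lay between, with Peg3 at 820 and 955 CPM and Zim1 at 66.6 and 89.5. Igf2 at 64.2 and 69.3 CPM against 64.8 and 67.1 and H19 at 1497 and 1402 against 1429 and 1386 were near level, and so was Meg3. Median UMIs per cell were 14252 and 12641 with both genes and 11263 and 9689 with neither. In the uterus 19 and 6 stromal cells held both genes, too few for a level. Another 435 and 497 uterine stromal cells held 1 gate gene. Zim1 in these was 8.42 and 7.65 CPM against 9.54 and 9.01 with neither gene. Peg3 was 295 and 228 CPM against 283 and 224, and Cdkn1c was 1042 and 940 against 1157 and 1000. Dlk1 at 508 and 536 CPM against 373 and 448 and Grb10 at 163 and 136 against 124 and 119 were higher. Of the 2 gate genes, 1 was called higher and 1 lower in oviduct than in uterine stroma. The group was found by clustering these same cells on all genes, so these values carry no test.

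**Figure D3:**
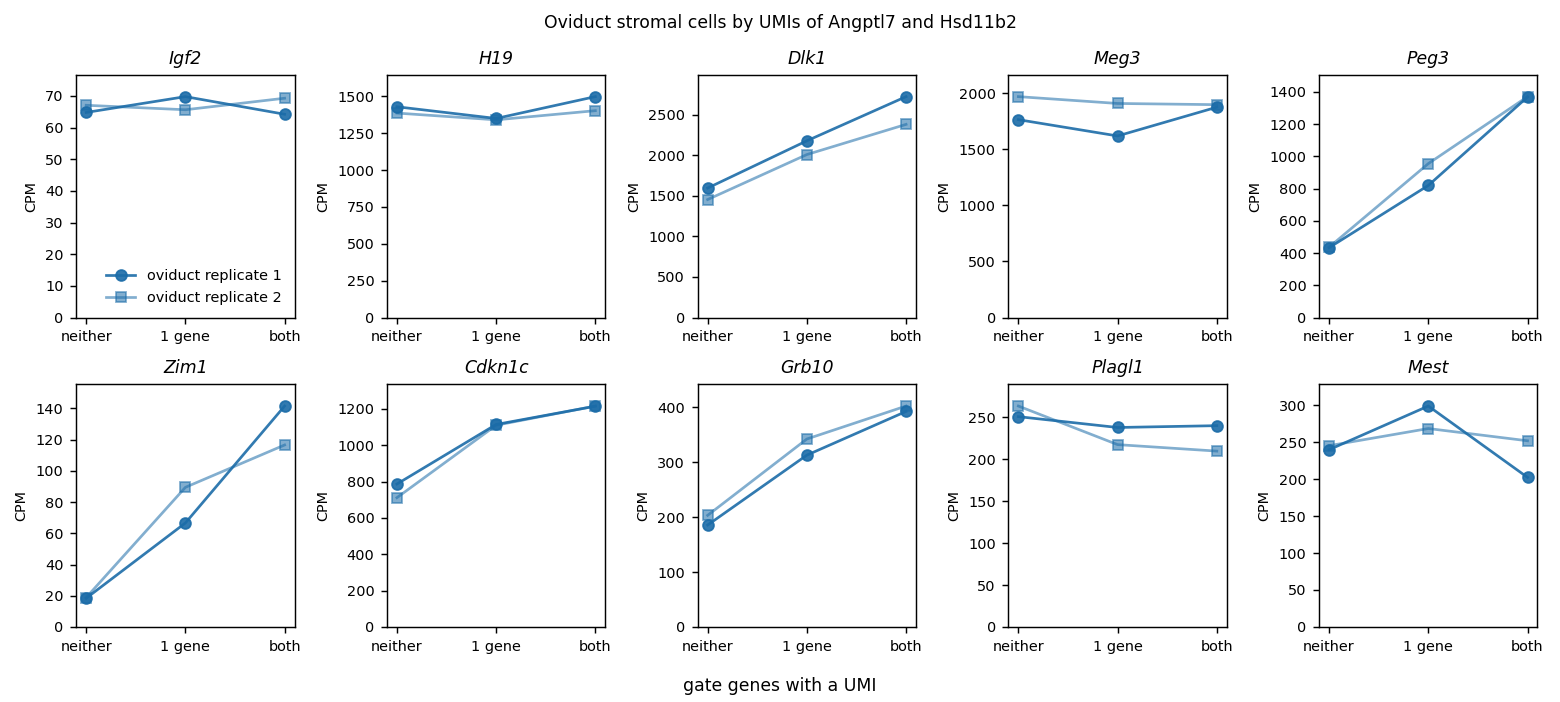
CPM of the 10 genes in oviduct stromal cells with UMIs of neither, 1 or both of Angptl7 and Hsd11b2, with 1 line per oviduct library and axes from 0. Zim1 goes from 18.4 and 18.8 to 142 and 117 CPM and Peg3 from 434 and 437 to 1368 and 1371, while Igf2 stays between 64.2 and 69.8.

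Stromal cells with at least 3 UMIs of 8 cell cycle genes were compared with stromal cells with none, within each library. Of the 9 genes, 7 were called, 6 lower and 1 higher in cycling cells, beside 40.2% of all genes (20.6% higher, 19.6% lower). H19 was 1200.3 and 1140.4 CPM in cycling and 1530 and 1475 in non-cycling cells of the oviduct, and 791 and 678 against 938 and 866 in the uterus, a log2 difference of -0.34 ± 0.03 (edgeR adjusted p = 9.8e-07). It was lower in 4 of 4 libraries, as were Igf2 at -0.34 ± 0.06, Meg3 at -0.32 ± 0.04 and Grb10 at -0.23 ± 0.04. Plagl1 and Cdkn1c were lower in 3 of 4 libraries, at -0.16 ± 0.05 and -0.11 ± 0.04. Both calls were lost without oviduct replicate 1 and without oviduct replicate 2. The log2 ratios of Plagl1 CPM were -0.28 and -0.27 in oviduct libraries and 0.05 and -0.06 in uterus libraries. Those of Cdkn1c were -0.15 and -0.18 against 0.01 and -0.08. A difference between the organs in these ratios was not tested. Mest was higher in 4 of 4 libraries, by 0.16 ± 0.04 (edgeR adjusted p = 0.0097; 0.059 without uterus replicate 1). DESeq2 called neither Plagl1 nor Mest (adjusted p = 0.078 and 0.079). Dlk1, at -0.09 ± 0.04, and Peg3, at 0.03 ± 0.04, were not called, but Dlk1 was called under 5 alternatives (adjusted p = 0.017 to 0.047), namely RLE scaling, no low-count filter, 1 more marker, a cycling gate of 5 UMIs, and without uterus replicate 1. Cycling cells were deeper, with medians of 12449 to 15707 UMIs against 9208 to 12237. Angptl7 and Hsd11b2, the 2 gate genes of the Zim1 group, were both called lower in cycling stroma, with a median log2 difference of -0.90. The part of such differences in stromal make-up was not tested. Uterine stroma held 484 and 647 cycling against 595 and 515 non-cycling cells, and oviduct stroma 774 and 547 against 1611 and 1293. Among non-cycling cells alone Dlk1 was 1777 and 1622 CPM in oviduct libraries and 396 and 484 in uterus libraries. The part of the cycling share in the organ differences was not tested.

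**Figure D4:**
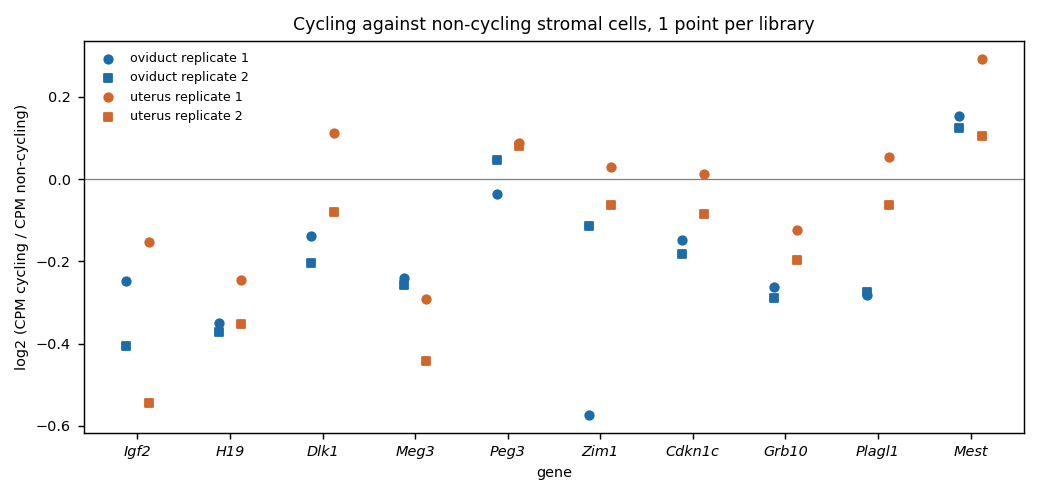
Log2 ratio of CPM in cycling to non-cycling stromal cells for the 10 genes, with 1 point per library (oviduct blue, uterus orange). H19, Igf2, Meg3 and Grb10 lie below 0 in all 4 libraries, and Mest lies above 0 in all 4.

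Of the other genes of these pathways, 18 of 40 tested imprinted genes were called between cycling and non-cycling stroma, 6 higher and 12 lower in cycling cells, beside 40.2% of all genes called. Tssc4 was higher by 0.68 and Airn was lower, at -0.59. Of 12 receptors and binders of Igf2, 1 was higher and 6 were lower, among them Igfbp5 at -0.66 and Igf2r, the receptor that clears Igf2, at -0.25. Of 12 partners of the other genes, 5 were higher and 3 lower. Ccne1 and Cdk2, which act at entry into DNA replication, were higher by 1.26 and 0.80 and the inhibitor Cdkn1b by 0.35, and Ccnd2, Cdk6 and Ccnd3 were lower, at -0.54, -0.37 and -0.19.

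Over the 28 sums of 7 classes and 4 libraries, the gene most like Igf2 in log2 CPM was H19 (Pearson r = 0.97), followed by Bgn and Col5a2. Those most like Dlk1 were the collagen genes Col6a1, Col5a1 and Col16a1 (0.96, 0.95 and 0.94). Peg3 was most like Meg3 (0.94), and Peg3 was the third gene for Zim1 (0.91) after Naalad2 and Dact1. Mest was most like Eng, Tcf4 and Igfbp7 (0.92, 0.91 and 0.91). The sums share libraries and class make-up, and these values are a description. Across single stromal cells, pairs of the 10 genes had weak rank correlations, at most 0.28 in the oviduct and 0.18 in the uterus, in sparse counts.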

How the data were processed

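RNA of single cells was captured with 10x Genomics Chromium 3′ v3.1 kits, per the labels' protocols. The deposited values are UMI counts per gene and barcode, not normalised, made by the authors with Cell Ranger; per the file headers, 6.0.1 wrote the called-cell matrices and 4 wrote those of every barcode. The build is mm10, per the submitters' processing notes, and the annotation used for counting is not given in the sources used here.

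Cells were gated by marker genes. Pericyte, endothelial, mesothelial, epithelial and myeloid cells needed at least 5 of their markers and 3 more than any other of these classes, smooth muscle at least 5 markers and stroma at least 4 with at most 3 of smooth muscle. No doublet caller was run. Smooth muscle and stroma also needed at most 3 markers of each of the classes listed before them. Pericyte, endothelial, mesothelial, epithelial and myeloid cells had no limit on stromal or smooth muscle markers. Doublets with stroma or smooth muscle were therefore not left out of them. An alternative left out the deepest 5% of cells. A total of 617 to 841 cells per library lay between the stromal and smooth muscle limits. Classes needed 20 cells in every library. Counts were summed per class and library and tested with edgeR 4.0.16 in R 4.3.3 (TMM, filterByExpr, quasi-likelihood F-test, 2-sided), with organ as the term, or with library, class and their interaction with organ, or with library for the cycling comparison. Calls were made below 0.05 after Benjamini-Hochberg adjustment across the genes of each fit. Fold changes are log2, oviduct minus uterus, with SE. With 2 pools per organ, p-values of the organ fits measure the spread between these pools, with variance partly shared across genes. Where library was a term, the spread between libraries in overall level is taken out. Those p-values measure how class or cycling differences vary from library to library. Replicates differed beyond sampling noise (chi-square per degree of freedom 20.1 and 10.4 in stroma). Wilson intervals and counts cover counting error only. The script was tested on simulated data.

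The members and lists were chosen with earlier results of these data known. Named genes of other lists are the 3 largest called changes per direction with a mean of at least 20 CPM, and the genes most like a member are the 3 with the highest correlation of log2(CPM + 1), without gate markers and predicted, mitochondrial or ribosomal genes. Alternatives were DESeq2 1.42.0, RLE scaling, no low-count filter, stricter cells and gates, ambient subtraction, thinning, a replicate block and each library left out. Ambient subtraction removed the upper bound of each sum.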

Additional observations from a re-analysis of the deposited data

Results flagged for a closer look

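For some genes the difference between oviduct and uterus was called as other than that in stroma. The test was of the difference itself (edgeR, interaction of organ and class, 2 libraries per organ). Values here are the log2 organ difference of a class minus that of stroma. In pericytes they were -2.39 for Dlk1, -1.20 for Meg3, -1.66 for Peg3, -0.56 for Grb10, -1.73 for Plagl1 and -1.22 for Mest. In mesothelium they were -1.03 for Igf2, -2.43 for Dlk1, -1.31 for Meg3 and -1.19 for Grb10. In epithelium they were -0.81 for H19, -1.43 for Dlk1, -0.97 for Meg3, -0.89 for Cdkn1c, -1.23 for Grb10, -1.80 for Plagl1 and 1.36 for Mest. In blood endothelium they were -1.18 for Meg3, -0.93 for Grb10 and -0.50 for Mest, and in smooth muscle -0.67 for Mest. All these comparisons share the stromal libraries. Much of the epithelial levels of H19 and Dlk1 may be ambient, by the upper bounds given above. The level of Mest in uterine epithelium rests on few UMIs. Several calls were lost under alternatives, among them H19, Dlk1 and Cdkn1c in epithelium and Mest in blood endothelium and smooth muscle. With 2 libraries per organ no library could be set against its group as an outlier.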

How the results depend on the processing

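Over 2070 refits of 178 gene values, 1849 kept their direction and their side of the threshold, 75 lost a call, 76 gained one, 69 changed sign without a call, 1 changed sign and gained a call (H19, interaction in myeloid cells without oviduct replicate 1, at -0.92) and 0 called values changed sign. The number of genes called moved by over 1.5 times as follows. The organ difference in blood endothelium (2) was 0 with DESeq2, 1 without the deepest 5% of cells, 1 after ambient subtraction and 1 to 3 with each library left out. That in pericytes (4) was 2 to 5, that in mesothelium (4) 1 to 4 and that in myeloid cells (0) 0 to 3 with each library left out, and 3 in myeloid cells with no low-count filter. The interaction in smooth muscle (1) was 4 with no low-count filter, 0 with 1 more marker, 3 without the deepest cells and 0 to 1 with each library left out. That in blood endothelium (3) was 5 with no low-count filter and 1 to 3 with each library left out, that in epithelium (7) was 4 to 7, and that in myeloid cells (0, with 0 at an unadjusted p under 0.05 by edgeR, 0 by DESeq2 and 1.82% of all genes called) was 0 to 3. Mesothelium minus stroma (5) was 8 with no low-count filter. The refits of the interaction in epithelium and myeloid cells also include Igf2, which passed the low-count filter only through other classes. The cause was not tested. Where 1 library was left in an organ, it is assumed to vary like the others.

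The labels do not tie replicate numbers to pools. Deviations of same-numbered libraries correlated at 0.16 in stroma, 0.22 in smooth muscle, 0.16 in mesothelium, -0.06 in pericytes, -0.24 in blood endothelium, -0.31 in epithelium and -0.22 in myeloid cells. With the replicate number as a block, 2 calls were lost (Peg3 in blood endothelium, leaving 1, and Grb10 in epithelium) and 3 were gained (Igf2 and Dlk1 in pericytes, Mest in mesothelium). With the numbers crossed, an alternative chosen after seeing the data, the block left 0 calls in blood endothelium, 5 in epithelium and 4 in myeloid cells. Without the library block (no replicate block), 0 of the 9 genes were called between cycling and non-cycling stroma, and 1517 of all 12918 genes were.

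Over all genes, the calls of the organ difference ranged from 4660 to 6685 in stroma (6216), 2721 to 4748 in smooth muscle (4276), 280.0 to 955 in pericytes (565), 176 to 555 in blood endothelium (418), 679 to 1600.0 in mesothelium (1139), 1522 to 3757 in epithelium (2690) and 0 to 247 in myeloid cells (13), and those of cycling stroma from 1517 to 5782 (5199). Calls of the interaction over all genes ranged from 312 to 1009 in smooth muscle (730), 300 to 950 in pericytes (665), 761 to 1559 in blood endothelium (1347), 1381 to 2778 in mesothelium (2482), 1850 to 3198 in epithelium (3078) and 165 to 481 in myeloid cells (271), each lowest without 1 uterus library. Thinning moved 14 of 140 levels by over 1.5 times, none of them in stroma, smooth muscle or pericytes. Few cells limit epithelium, mesothelium and myeloid cells of the uterus.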
